A study of Homo sapiens with 2 samples.

Results

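The 9 p53 target genes described here are CDKN1A, MDM2, BTG2, SESN1, GDF15, TP53I3, ZMAT3, BBC3 and FAS. They were chosen by gene name, and all 9 were found among the 58735 genes of the count tables. They were followed in BHT101, a line of human anaplastic thyroid cancer cells grown in culture, in 1 library of cells overexpressing SETDB2 and 1 library of control cells of the same line. SETDB2 belongs to the histone H3 lysine 9 methyltransferases, and the series title links it to the splicing factor U2AF1. The labels name no vector, clone or time after its introduction, and with n = 1 in each group every value below compares 2 libraries.

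The transcription factor p53 is stabilised when DNA is damaged or cells are otherwise stressed, and then binds a sequence made of a pair of half-sites near its target genes. The products of these genes stop the cell cycle, limit growth and oxidative damage, start apoptosis, or return p53 to low levels through MDM2. Gene counts do not show the activity of the protein.

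The libraries were of nearly equal depth, with 34053348 counts in the SETDB2 library and 33572025 in the control library. SETDB2 itself had 1370 counts in the SETDB2 library and 507 in the control library, 2.69-fold higher. The 6 epithelial markers summed to 2331 CPM (counts scaled to library size) in the SETDB2 library and 2152 CPM in the control library, with the keratin KRT8 at 146.1 FPKM in the SETDB2 library and 140.7 FPKM in the control library but the cadherin CDH1 at 0.469 and 0.579 FPKM in those libraries. The 8 thyroid follicular markers summed to 7.14 CPM in the SETDB2 library and 7.68 CPM in the control library, and 2 of them were kept. These were the transcription factors HHEX, with 197 counts in the SETDB2 library and 188 in the control library, and PAX8, with 30 and 42 counts in those libraries. The thyroglobulin gene TG had 2 counts in the SETDB2 library and 6 in the control library. The markers named in this paragraph were chosen after their values were seen. The 6 leukocyte markers summed to 0.885 CPM in the SETDB2 library and 1.28 CPM in the control library, and the 4 endothelial markers to 2.45 and 3.79 CPM in those libraries. Of 6 fibroblast markers 3 were kept, COL1A1, COL1A2 and LUM, and all 3 were higher in the SETDB2 library. DCN, PDGFRB and COL3A1 were not kept and had fewer counts in that library. DCN had 8 counts there and 14 in the control library, PDGFRB 12 and 17, and COL3A1 0 and 1. The whole list summed to 107.1 CPM in the SETDB2 library and 70.2 CPM in the control library, and the part of this in the results below was not tested.

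The p53 binding sequence itself is present beside some of these genes, and the matches are shown because binding by p53 is what the 9 genes are known to share. RefSeq windows (GRCh38.p14) of 250 bases before to 50 bases after a transcript start were searched on both strands for the 20-base p53 consensus, made of 2 adjoining 10-base half-sites. The invariant C and G of each half-site were required and at most 2 mismatches were allowed elsewhere. All 9 genes had at least 1 window, 17 in all. MDM2 and FAS held a match, 2 of 9 genes (22.2%), as did 0.342% of the 14896 protein-coding genes with a window. With 3 mismatches allowed, SESN1 and GDF15 were added, and 1.55% of protein-coding genes held a match. In the lines below, capitals mark the invariant C and G of each half-site.
MDM2: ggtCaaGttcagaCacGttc
FAS: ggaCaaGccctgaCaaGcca
SESN1: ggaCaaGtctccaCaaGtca
GDF15: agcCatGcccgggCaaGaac
The MDM2 match (chr12:68808923-68808942, plus strand) was intronic, 94 bases before a RefSeq start and 747 bases downstream of the annotated gene start. The FAS match (chr10:88991309-88991328, plus strand) lay in annotated FAS exonic sequence, 122 bases before a RefSeq start. The SESN1 match (chr6:109009018-109009037, minus strand) was intronic, 49 bases before a RefSeq start, and the GDF15 match (chr19:18386186-18386205, plus strand) was exonic, 28 bases after one. These are matches of letters and not measured binding.

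The genes differed widely in FPKM within both libraries. This FPKM divides by the exonic bases of all annotated transcripts together, 3050 for CDKN1A and 2087 for GDF15. The longest transcript alone gives 2193 overlapping 75-base pieces for CDKN1A and 1126 for GDF15. The shares and order below therefore hold for this FPKM and depend on the length used. CDKN1A and GDF15 made up most of the summed FPKM of the 9 genes, 48.8% and 26.7% in the SETDB2 library, against 43.0% and 34.1% in the control library. MDM2 and ZMAT3 lay between 4.32 and 4.90 FPKM, and the other 5 genes between 0.994 and 2.097 FPKM. In the SETDB2 library the order was CDKN1A, GDF15, MDM2, ZMAT3, TP53I3, FAS, BBC3, BTG2 and SESN1. In the control library BTG2 stood sixth, ahead of FAS and BBC3, and the rest kept their order. From TP53I3 downward, the Poisson intervals of neighbours in that order overlapped in both libraries. Those of MDM2 and ZMAT3 overlapped in the SETDB2 library but not in the control library. Overlap of such intervals does not show that levels are equal, and no interval was taken for the ratio of neighbours.

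**Figure D1:**
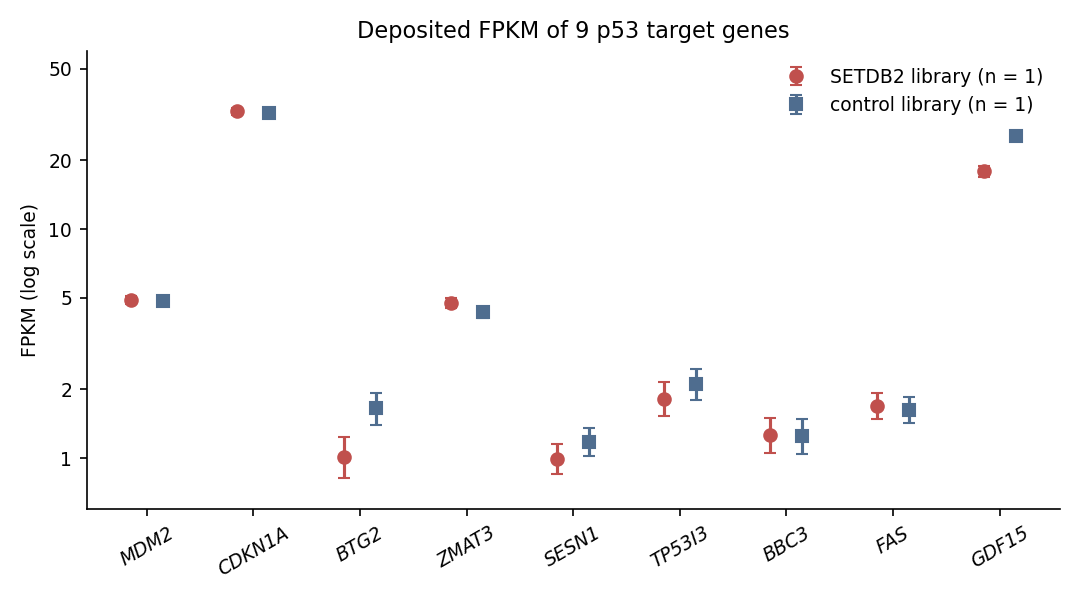
Level of each p53 target gene in FPKM on a log scale, in the SETDB2 library (circles) and the control library (squares), with bars for the exact 95% Poisson interval of the count. CDKN1A had the highest FPKM in both libraries, and the points of BTG2 and GDF15 are the ones that part most.

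None of the 9 genes was 2-fold higher or lower in the SETDB2 library with a counting interval that excluded equality. The 14859 genes kept, including all 9, had 50 or more counts over both libraries, and of them 1.04% were that much higher and 1.57% that much lower, 2.62% in all. In such bulk libraries fewer cells that express a gene and less RNA per cell cannot be told apart. At 1.5-fold, BTG2 alone passed, as lower, where 4.97% of genes kept were lower and 2.99% higher, 7.96% in all. Counting intervals excluded equality for 3 genes, BTG2 and GDF15 as lower and ZMAT3 as higher. Over all genes kept 24.1% were lower and 25.7% higher by that rule, 49.9% in all, beside 22.2% and 11.1% of the 9 genes. With the GC trend described below removed, 3 of the 9 (33.3%) were lower, BTG2, GDF15 and SESN1, and CDKN1A in place of ZMAT3 was higher, where 23.9% of genes were lower and 22.3% higher. With 9 genes, 1 gene moves such a share by 11.1 percentage points, so these shares are not read as a departure from the background. The median log2 ratio of the 9 genes was 0.00, beside 0.002 over all genes kept, with 5 of the 9 above 0 and 4 below. Of all genes kept, 50.3% lay above 0 and 49.7% below.

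**Figure D2:**
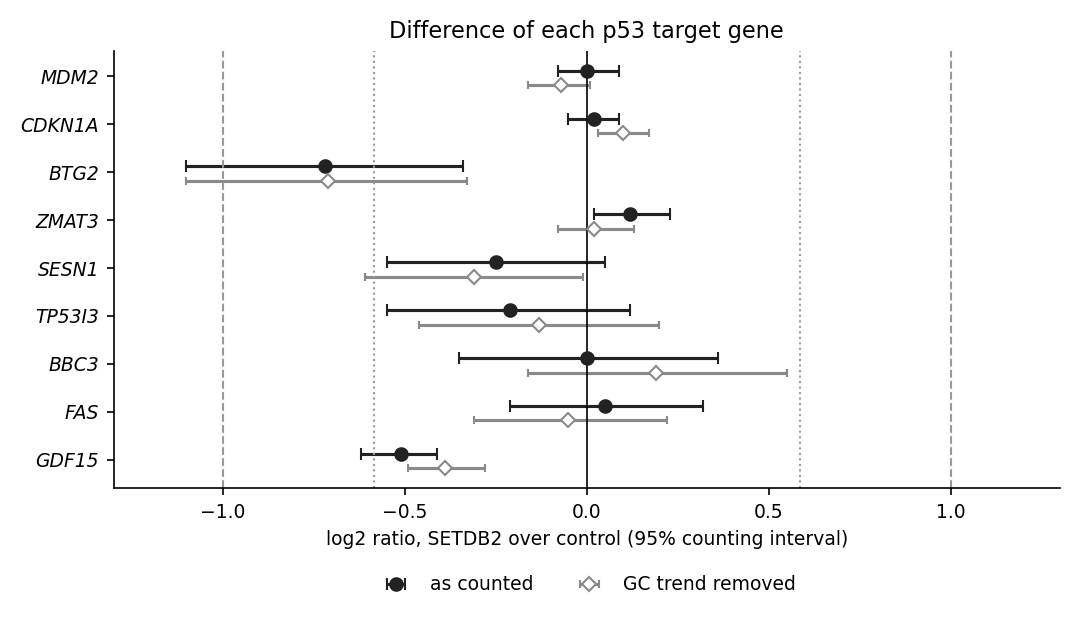
Log2 ratio (SETDB2 over control) for each gene, as counted (filled circles) and with the GC trend removed (open diamonds), with 95% counting intervals. Dotted lines mark 1.5-fold and dashed lines 2-fold, and only BTG2 lies beyond a dotted line.

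MDM2, the ubiquitin ligase that marks p53 for destruction (ENSG00000135679, chromosome 12, 68808176 to 68850686, plus strand), had nearly the same count in both libraries. It had 2201 counts in the SETDB2 library and 2189 in the control library. Its log2 ratio was 0.00, with a 95% counting interval of -0.08 to 0.09. Counting error therefore allows at most a 1.06-fold difference in either direction. With the GC trend removed the MDM2 ratio was -0.07 (-0.16 to 0.01). This is the gene whose intronic window holds the p53 match shown first above. Other genes overlap 9.21% of its exonic bases, and 9.16% of the 75-base pieces of its longest transcript occur in other genes. Among these is CPM on the opposite strand, with 134 counts in the SETDB2 library and 102 in the control library. MDM4, the relative that blocks p53 without degrading it, had 1476 and 1524 counts in the SETDB2 and control libraries, a log2 ratio of -0.05 (-0.16 to 0.05). With the GC trend removed the MDM4 ratio was -0.12 (-0.23 to -0.02), an interval that excludes equality.

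Among 26 regulators and cofactors of p53, 25 were kept, 13 above 0 and 12 below, with a median of 0.02. None was 2-fold different, beside 2.62% of all genes kept. TP63, a p53 family member, was the 1 gene past 1.5-fold, as lower, 4.0% of the 25 beside 4.97% of all genes kept. It had 37 counts in the SETDB2 library and 57 in the control library, a log2 ratio of -0.62 (-1.27 to -0.01). Intervals excluded equality for 11 genes as higher and 8 as lower, 44.0% and 32.0%, beside 25.7% and 24.1% of all genes kept. These shares were not matched for counts. PPP1R13L, which encodes the p53 inhibitor iASPP, stood at -0.32 (-0.48 to -0.17). PPM1D, a phosphatase that is both a target and a brake of p53, stood at 0.31 (0.11 to 0.50), and USP7, which removes ubiquitin from p53 and MDM2, at 0.25 (0.19 to 0.31).

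CDKN1A, which encodes the cyclin-dependent kinase inhibitor p21 and is the best-known target for cell cycle arrest (ENSG00000124762, chromosome 6, 36676460 to 36687339, plus strand), had the highest FPKM of the 9 genes. It had 3368 counts in the SETDB2 library and 3305 in the control library, or 32.67 and 32.04 FPKM. The log2 ratio was 0.02 (-0.05 to 0.09), so counting error allows at most a 1.06-fold higher or 1.03-fold lower level. With the GC trend removed it was 0.10 (0.03 to 0.17), an interval that excludes equality. In both libraries its FPKM exceeded that of 89.9% of the protein-coding genes kept. The non-coding gene DINOL, which shares 4.79% of the CDKN1A exonic bases on the opposite strand, had 0 counts in both libraries.

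Of the 6 other cyclin-dependent kinase inhibitors 5 were kept, with a median log2 ratio of 0.11 (0.22 with the GC trend removed). Of these 0 passed 1.5-fold, beside 7.96% of all genes kept. CDKN1B, which encodes p27, had 23.1 FPKM in the SETDB2 library and 24.5 FPKM in the control library, with a log2 ratio of -0.09 (-0.18 to -0.01). CDKN2A and CDKN2B, which share a locus, stood at 0.11 (0.01 to 0.20) and 0.33 (0.25 to 0.41). CDKN2C and CDKN2D stood at 0.21 (0.05 to 0.38) and 0.02 (-0.16 to 0.21), and CDKN1C, with 8 counts in the SETDB2 library and 13 in the control library, was not kept.

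BTG2, an antiproliferative gene that recruits mRNA deadenylases (ENSG00000159388, chromosome 1, 203305491 to 203309602, plus strand), had the lowest ratio of the 9. It had 94 counts in the SETDB2 library and 154 in the control library, or 1.01 FPKM (0.815 to 1.23) and 1.65 FPKM (1.40 to 1.93), and these Poisson intervals do not overlap. The log2 ratio was -0.72 (-1.10 to -0.34), 1.64-fold lower, and counting error alone allows a difference between 1.27-fold and 2.15-fold lower. In all, 3.67% of genes kept had a lower ratio. Among the 1251 genes with a summed count from 200 to below 400, where BTG2 lies at 248, the 5th percentile of the log2 ratio was -0.74, so BTG2 stood just inside the central range. No other gene overlaps its exons, and its GC content of 50.3% lies where the GC trend was 0, so that removing the trend left the ratio at -0.71.

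Of the 5 relatives of BTG2 4 were kept, with a median log2 ratio of -0.03, and all 4 intervals included equality. BTG1 had 23.1 FPKM in the SETDB2 library and 24.0 FPKM in the control library, 22.9 and 14.5 times the level of BTG2 in those libraries, with a log2 ratio of -0.06 (-0.12 to 0.01). BTG3 stood at -0.01 (-0.18 to 0.16), TOB1 at 0.17 (-0.02 to 0.36) and TOB2 at -0.04 (-0.13 to 0.04). BTG4 had 1 count in each library. No test of the difference between BTG2 and these genes was possible with 1 library per group.

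ZMAT3, a zinc finger protein that binds RNA and acts in splicing and mRNA decay downstream of p53 (ENSG00000172667, chromosome 3, 179017223 to 179072279, minus strand), was the only member whose interval lay above 0. It had 1544 counts in the SETDB2 library and 1410 in the control library. It was 1.09-fold higher in the SETDB2 library (log2 ratio 0.12, 0.02 to 0.23). With the GC trend removed the ratio was 0.02 (-0.08 to 0.13), an interval that includes equality. In all, 29.5% of genes kept had a higher ratio.

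**Figure D3:**
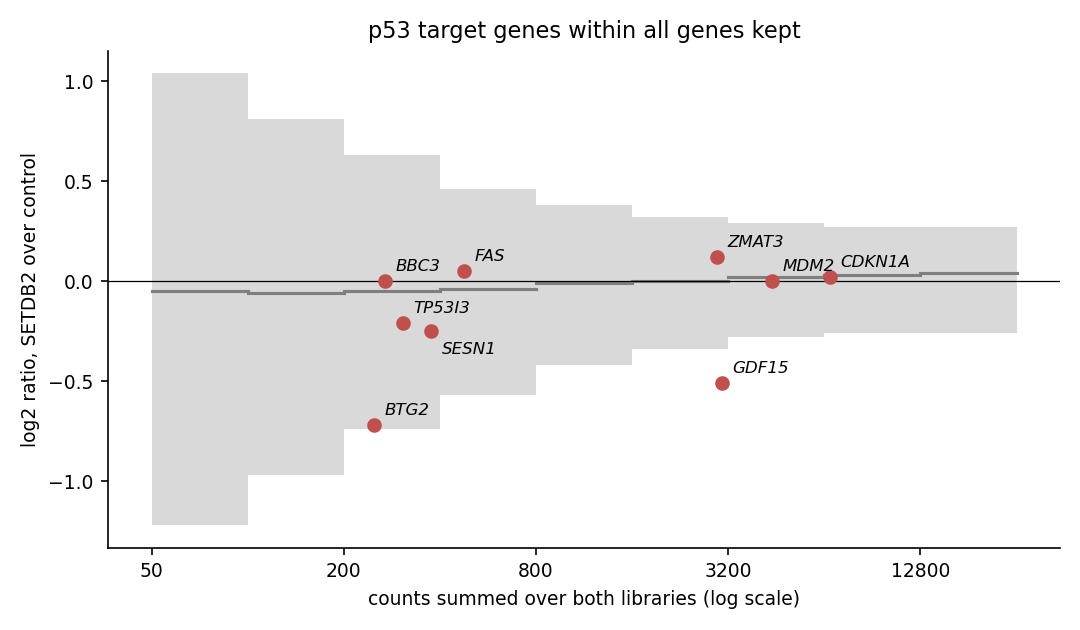
Log2 ratio (SETDB2 over control) against the counts summed over both libraries (log scale). The 9 genes are points, the grey band spans the 5th to 95th percentile of all genes kept in each range of counts and the grey line is their median. GDF15 lies below the band and BTG2 just above its lower edge.

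SESN1 and TP53I3 act on oxidative stress and growth. SESN1, a sestrin that restrains the growth kinase complex mTORC1 through the GATOR proteins (ENSG00000080546, chromosome 6, 108986437 to 109094819, minus strand), had 172 counts in the SETDB2 library and 204 in the control library. Its log2 ratio was -0.25 (-0.55 to 0.05), an interval that includes equality and reaches 1.47-fold lower. With the GC trend removed it was -0.31 (-0.61 to -0.01), which excludes equality. Another gene, AL390208.1 on the opposite strand, covers 7.09% of its exonic bases and had 1 count in the SETDB2 library and 6 in the control library.

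The relative SESN2 was far more abundant per length, at 28.4 FPKM in the SETDB2 library and 35.4 FPKM in the control library, beside 0.994 and 1.18 FPKM for SESN1. SESN2 had 3308 counts in the SETDB2 library and 4134 in the control library, a log2 ratio of -0.33 (-0.39 to -0.26). SESN3 had 30 and 20 counts in the SETDB2 and control libraries, a log2 ratio of 0.57 (-0.29 to 1.47). Of the 10 genes of the sestrin and GATOR list, 5 lay above 0 and 5 below, with a median of 0.02. At 1.5-fold 0 of these passed, beside 7.96% of all genes kept. The GATOR subunits with the largest ratios were DEPDC5 at 0.22 (-0.03 to 0.47) and SEH1L at 0.13 (0.06 to 0.20).

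TP53I3, a quinone oxidoreductase also called PIG3 (ENSG00000115129, chromosome 2, 24077433 to 24085861, minus strand), had 142 counts in the SETDB2 library and 164 in the control library. The log2 ratio was -0.21 (-0.55 to 0.12), and counting error allows from 1.46-fold lower to 1.09-fold higher. FAM228B on the opposite strand shares 3.46% of its exonic bases and had 76 counts in the SETDB2 library and 74 in the control library.

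The apoptosis genes BBC3 and FAS had nearly equal counts in both libraries. BBC3, which encodes the BH3-only protein PUMA (ENSG00000105327, chromosome 19, 47220822 to 47232766, minus strand), had 135 counts in the SETDB2 library and 134 in the control library. Its log2 ratio of 0.00 (-0.35 to 0.36) leaves room for a 1.28-fold difference in either direction. Its transcript was the richest in GC of the 9 at 69.7%, and with the GC trend removed the ratio was 0.19 (-0.16 to 0.55).

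PMAIP1, which encodes NOXA and is itself a p53 target, was the abundant BH3-only gene, at 148.5 FPKM in the SETDB2 library and 164.9 FPKM in the control library. That was 118 and 132 times the level of BBC3 in those libraries, and the log2 ratio of PMAIP1 was -0.16 (-0.20 to -0.12). BIK stood at 0.28 (0.07 to 0.48), BCL2L11 at 0.13 (-0.03 to 0.30), BMF at -0.04 (-0.23 to 0.16), BAD at -0.11 (-0.44 to 0.21) and BID at -0.11 (-0.30 to 0.08). The median of the 6 kept was -0.07 (0.03 with the GC trend removed). HRK had 6 counts in the SETDB2 library and 11 in the control library and was not kept.

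FAS, the death receptor also known as CD95 (ENSG00000026103, chromosome 10, 88990582 to 89015785, plus strand), had 243 counts in the SETDB2 library and 233 in the control library. The log2 ratio was 0.05 (-0.21 to 0.32), which leaves room for 1.25-fold higher and 1.16-fold lower. The smooth muscle actin gene ACTA2 on the opposite strand shares 8.93% of its exonic bases, and its annotated span includes the p53 match shown above. ACTA2 had 10 counts in the SETDB2 library and 32 in the control library. In the death receptor pathway around FAS, 10 of 12 genes were kept, 8 below 0 and 2 above, with a median of -0.09 and 0 past 1.5-fold. TNFRSF10B, the TRAIL receptor DR5 and another p53 target, had 42.2 FPKM in the SETDB2 library and 53.2 FPKM in the control library, a log2 ratio of -0.34 (-0.39 to -0.30). The caspase inhibitor CFLAR stood at -0.18 (-0.27 to -0.10), the adaptor FADD at -0.18 (-0.38 to 0.03) and TNFRSF1A at -0.15 (-0.19 to -0.10). The ligand FASLG had 2 counts in the SETDB2 library and 8 in the control library.

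GDF15, a secreted cytokine of the TGF-beta superfamily that is induced by p53 and also by ATF4 and CHOP in the integrated stress response (ENSG00000130513, chromosome 19, 18374731 to 18389176, plus strand), was lower in the SETDB2 library. It had 1262 counts in the SETDB2 library and 1794 in the control library, or 17.9 FPKM (16.9 to 18.9) and 25.4 FPKM (24.3 to 26.6). The log2 ratio was -0.51 (-0.62 to -0.41), 1.43-fold lower, with 6.90% of genes kept at a lower ratio. Among the 2477 genes with a summed count from 1600 to below 3200 the 5th percentile was -0.34, and GDF15, at 3056 counts, lay below it. No other gene shares its exonic bases. Its GC content was 62.9%, and with the GC trend removed the ratio was -0.39 (-0.49 to -0.28).

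A list of ATF4 itself and genes known to respond to ATF4 and CHOP, 14 in all, was set beside GDF15. Of these 12 lay below 0, with a median over the 14 of -0.23 (-0.15 with the GC trend removed). At 1.5-fold 0 of the 14 passed, beside 7.96% of all genes kept. For 11 of the 14, 78.6%, the interval lay below 0, beside 24.1% of all genes kept. With the GC trend removed the interval lay below 0 for 9, 64.3%, beside 23.9%. Higher counts give narrower intervals, and the lowest summed count in this list was 1694, for ASNS. The genes kept were not matched to the list for counts, so these shares are not like for like. The list was also chosen with earlier results of these data known. ASNS, asparagine synthetase, stood at -0.55 (-0.69 to -0.41), DDIT3, which encodes CHOP, at -0.40 (-0.52 to -0.28), TRIB3 at -0.37 (-0.41 to -0.33) and VLDLR, in the other direction, at 0.33 (0.20 to 0.46). SESN2 is in this list as well as among the p53 targets. FURIN, a protease that matures GDF15, stood at 0.03 (-0.04 to 0.11), and the receptor genes were at or near 0. GFRAL had 0 counts in both libraries, and RET had 2 in the SETDB2 library and 0 in the control library.

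**Figure D4:**
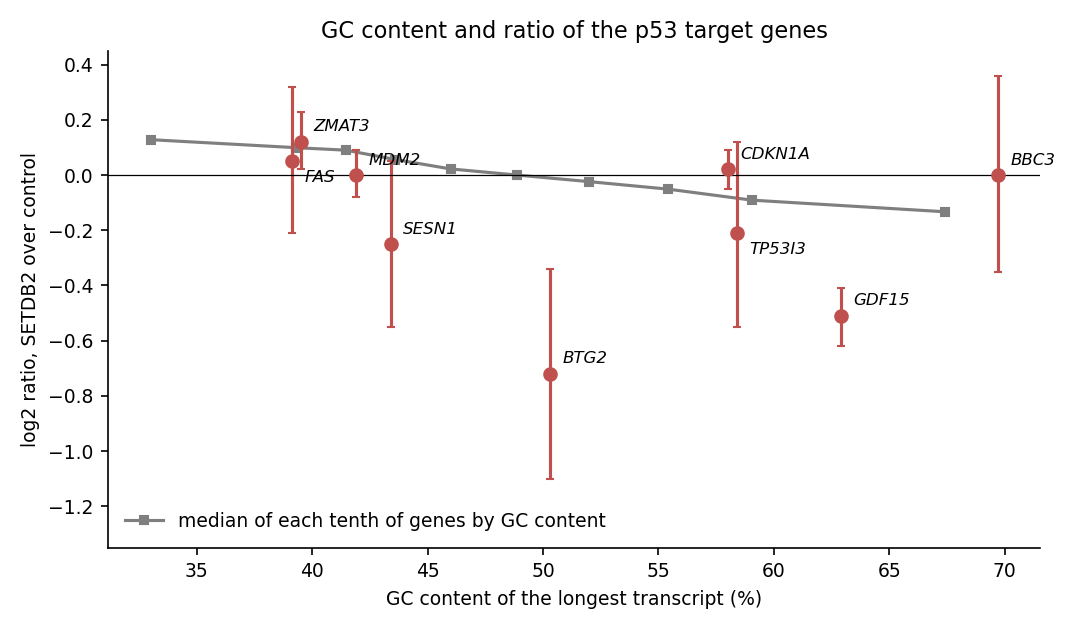
Log2 ratio (SETDB2 over control) against the GC content of the longest transcript, with 95% counting intervals for the 9 genes. The line runs through the medians of 10234 genes with 500 or more summed counts, split into 10 groups of similar size by GC content. The medians run from 0.13 in the group lowest in GC to -0.13 in the highest, and BTG2 and GDF15 lie farthest below the line.

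The GC trend is given beside the 9 because they span it. It was fitted over 10234 genes with 500 or more counts over both libraries. BTG2, BBC3, TP53I3, SESN1 and FAS had fewer, so the trend removed from them came from genes with more counts. FAS had the lowest GC content at 39.1% and BBC3 the highest at 69.7%. Among the genes fitted, the median log2 ratio between 27.8% and 38.2% GC was 0.13 and that between 60.9% and 73.9% was -0.13. With the trend removed the median of the 9 genes was -0.07, beside -0.006 over all genes kept. The part of library preparation in this trend cannot be told apart from that of the cells with 1 library per group.

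Beyond the 9 genes, 45 other p53 targets were listed and 42 were kept. Of these 27 lay below 0 and 15 above, with a median of -0.06. Intervals excluded equality for 17 as lower and 11 as higher, 40.5% and 26.2% of the 42 genes, beside 24.1% and 25.7% of all genes kept. These shares were not matched for counts either. At 1.5-fold 4 of the 42 were lower, 9.52%, and 0 higher, beside 4.97% and 2.99% of all genes kept. The 4 were SULF2, TRIM22, EDA2R and TIGAR, and of these SULF2 and TRIM22 were also 2-fold lower, 2 of the 42 genes beside 1.57% of all genes kept. SULF2, a heparan sulfatase, had 31 counts in the SETDB2 library and 94 in the control library, a log2 ratio of -1.59 (-2.24 to -1.01). TRIM22, which interferon also induces, had 71 counts in the SETDB2 library and 164 in the control library, a log2 ratio of -1.21 (-1.64 to -0.80). EDA2R, a receptor of the TNF receptor family, had 511 and 800 counts in the SETDB2 and control libraries, a log2 ratio of -0.65 (-0.82 to -0.49). TIGAR, a phosphatase that limits glycolysis, had 52 and 79 counts in those libraries, a log2 ratio of -0.61 (-1.14 to -0.09). The 3 highest, chosen after their values were seen, were PRDM1 at 0.55 (0.09 to 1.02), SERTAD1 at 0.52 (0.34 to 0.69) and the apoptosome gene APAF1 at 0.40 (0.25 to 0.55). CYFIP2, SPATA18 and TNFRSF10C were below the count minimum.

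A further list held 32 cell cycle genes that p53 is known to repress indirectly, through p21 and the DREAM complex. Of these 31 were kept, 28 above 0 and 3 below, with a median of 0.16. For 24 of them, 77.4%, the interval lay above 0, beside 25.7% of all genes kept, and for 0 it lay below. With the GC trend removed it lay above 0 for 23 and below 0 for 1. Intervals narrow as counts rise, and the genes kept were not matched to this list for counts, so these shares are not like for like. The differences were small, and 1 of the 31 genes passed 1.5-fold, beside 2.99% of all genes kept. This was AURKA, the mitotic kinase, at 1.23 (1.18 to 1.28), which also passed 2-fold. BLM, CDK1 and KIF23 followed at 0.34 (0.20 to 0.48), 0.34 (0.28 to 0.39) and 0.33 (0.27 to 0.40).

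**Figure D5:**
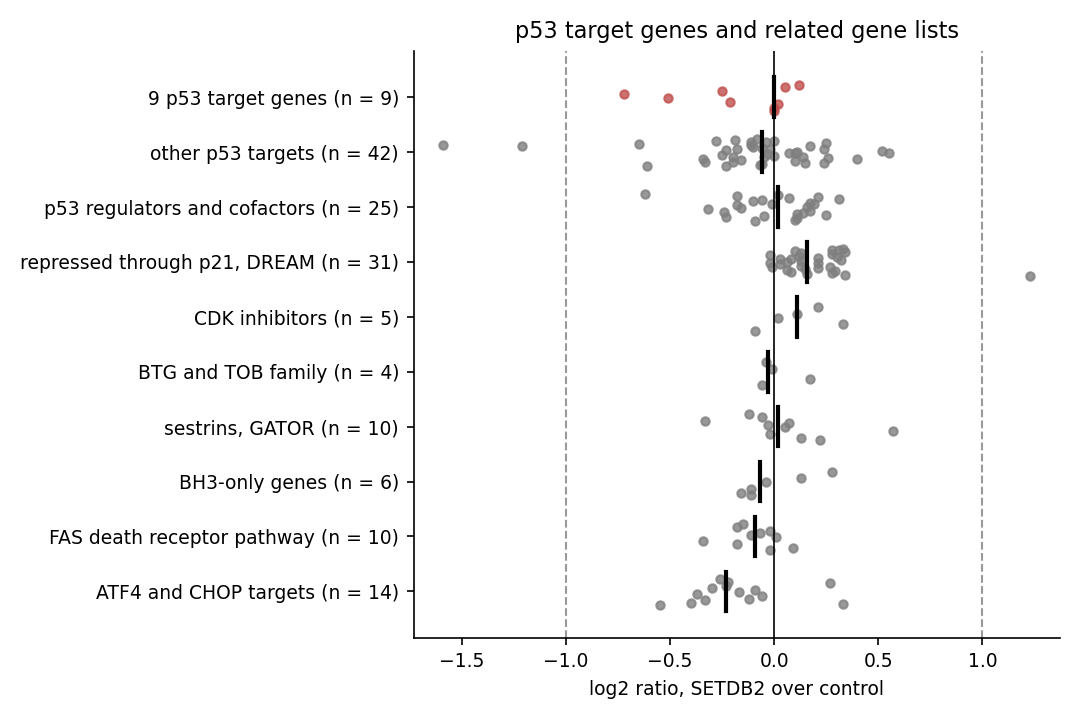
Log2 ratio (SETDB2 over control) for each kept gene of the 9 p53 targets (top row) and of the related lists, with a black bar at each median and dashed lines at 2-fold. The median lies at 0.00 for the 9 genes, at -0.06 for the other p53 targets, at 0.16 for the genes repressed through p21 and DREAM and at -0.23 for the ATF4 and CHOP targets.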

How the data were processed

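RNA was sequenced from 1 BHT101 library with SETDB2 overexpression and 1 control library. The authors deposited whole-number read counts per gene and FPKM values (counts scaled to gene length and library size) for each library. Per the submitters' processing notes, the tools were Cufflinks and Cuffdiff 2.1.1, TopHat2 2.0.9 and Bowtie2 2.0.6, with no step named. Which program counted reads, and with what strand setting, is not given in the sources used here. All 58735 genes of the tables had the coordinates and exonic lengths of GENCODE release 29 (GRCh38).

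Here, counts were scaled with TMM factors (edgeR 4.0.16, R 4.3.3). No test was run, because a group of 1 library has no spread. The log2 ratio used a prior count of 0.5, and its 95% interval is the exact Clopper-Pearson interval of 2 counts, which covers counting error only. Genes were kept where both libraries together held 50 counts or more. The procedure was tested on simulated counts that held counting error only, so that test says nothing about spread between libraries. Alternatives were DESeq2 1.42.0 size factors, total counts, upper-quartile factors, other count filters, folds and priors, the FPKM values, and removal of a GC trend (lowess, statsmodels 0.14.6).

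The members and all gene lists were chosen with earlier results of these data known. Named genes were all members, MDM4 and SETDB2, genes overlapping a member, every gene of lists of 7 or fewer, and in longer lists up to 4 kept genes with the largest absolute ratio; others are marked. Some genes that this rule names are not reported here.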

Additional observations from a re-analysis of the deposited data

How the results depend on the processing

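The log2 ratios of BTG2 and GDF15 stayed below 0 and that of ZMAT3 above 0 under all 6 alternatives tried for single genes. BTG2 ranged from -0.73 to -0.66, GDF15 from -0.53 to -0.39 and ZMAT3 from 0.02 to 0.14. The 3 other scalings and the prior count of 2 and the FPKM values moved no member's ratio out of its own counting interval. With the GC trend removed, CDKN1A stood at 0.10, GDF15 at -0.39, and the medians of the CDK inhibitors at 0.22, of the ATF4 and CHOP targets at -0.15 and of the list with FURIN at 0.15. With that trend removed the interval of ZMAT3 included equality, while those of CDKN1A and SESN1 excluded it. Added after the data were seen, the count of the 9 genes whose interval excluded equality was 2 lower and 1 higher under each other scaling, and 3 lower and 1 higher with the GC trend removed. The counts over all genes depended on the filter and fold. With a summed count of at least 200, 32 genes were 2-fold higher and 47 lower, and 140 and 279 passed 1.5-fold. With no filter these were 866, 1056, 1161 and 1568, and the list with FURIN had a median of 1.18. That median rested on FURIN and on RET, which had 2 counts in the SETDB2 library and 0 in the control library. At 4-fold 9 genes were higher and 13 lower. In each of these settings 0 members passed 2-fold, and under every filter BTG2 alone passed 1.5-fold. The p53 consensus was matched in 2 members with at most 2 mismatches and in 4 with at most 3. Wider windows around gene starts were not run. Leaving out a library was not possible with 1 in each group. No paired analysis was possible because each group held 1 library and the labels number no replicates. Counting error limits BBC3, BTG2, TP53I3, SESN1 and FAS most, since their summed counts lay between 248 and 476.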
